A study of Mus musculus with 7 samples.

Results

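The genes described here are 7 class I myosins, Myo1c, Myo1h, Myo1d, Myo1g, Myo1a, Myo1e and Myo1f, chosen by gene symbol from the 46603 genes in the count files. The set does not hold every gene of the class. RNA was sequenced from tumors that formed after mouse embryonic fibroblasts were injected into female nude mice of the Balb/c strain. For the site, the paper's methods give the right flank under the skin and its results the mammary pads. The mice were 16 weeks of age, each group had 5, and tumors were taken after 30 days by the sample labels. The paper gives a shorter time. The NM1 KO cells carried a CRISPR/Cas9 deletion of nuclear myosin 1 (NM1), a protein made from the Myo1c gene. The KO+NM1 cells were the same knockout cells transduced with a lentivirus carrying the NM1 coding sequence with HA and V5 tags, so both groups carried the deletion. The labels describe 1 tumor of each kind cut into 4 pieces, of which 3 NM1 KO and 4 KO+NM1 pieces were sequenced. The spread given below is therefore the spread between pieces and may hold no difference between mice. Wild-type cells gave no tumors, so no wild-type library enters a comparison.

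Class I myosins are single-headed motors that walk on actin filaments and bind membrane lipids through their tails, with calmodulin as a light chain. They tension membranes, move vesicles and shape protrusions. Myo1a, Myo1c, Myo1d, Myo1g and Myo1h have short tails, while Myo1e and Myo1f have long tails that add an SH3 domain. Myo1f and Myo1g are known mainly from white blood cells, Myo1a from the brush border of the gut and Myo1c from most tissues.

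The Myo1c gene encodes 3 proteins that differ only at their amino terminus, and the form with 16 added codons is NM1. The coding starts are shown because the gene is the target of the deletion and of the rescue, and because a count per gene adds all forms together. They were read from the GENCODE M21 transcripts on GRCm38, chr11, plus strand, and all 3 forms end with the same shared part. Capitals mark the bases that lie ahead of the start codon of the shortest form, and the lower-case part is the first 30 bases that all forms share.
Myo1c-201, shortest form, coding start at 75657522, 1028 codons: atggagagcgccttgactgcccgagaccgg
Myo1c-204, the NM1 form, coding start at 75656184, 1044 codons: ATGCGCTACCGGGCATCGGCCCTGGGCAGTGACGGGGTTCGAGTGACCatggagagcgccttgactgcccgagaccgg
Myo1c-203, longest form, coding start at 75650690, 1063 codons: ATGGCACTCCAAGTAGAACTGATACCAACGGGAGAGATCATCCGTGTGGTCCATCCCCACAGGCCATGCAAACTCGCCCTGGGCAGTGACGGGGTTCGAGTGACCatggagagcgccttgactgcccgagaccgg
The forms differ by 48 and 105 added bases in a gene with 6585 bases of merged exon, and the Myo1c-202 transcript has the same coding start as Myo1c-201. The Myo1c counts cannot be split into NM1 and the other forms, into host and injected cells, or into transcripts of the mouse gene and of the lentivirus.

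Library totals ran from 24088309 to 28326568 counts, and 3 counts, the limit that a count of 0 allows, came to between 0.0989 and 0.148 CPM, which is the count scaled to the TMM-adjusted library size. These limits cover counting error only. KO+NM1 piece 01 stood apart from the other KO+NM1 pieces. Its 10 B cell markers summed to 6470 CPM against 4.64 to 24.5 in pieces 02 to 04 and 31.4 to 72 in the NM1 KO pieces, and B cells are among the cells that nude mice keep. Its 10 fibroblast markers summed to 3290 CPM against 8570 to 15300 in pieces 02 to 04 and 7840 to 14100 in NM1 KO. The fold change of each class I myosin is therefore given with and without this piece.

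All 7 genes passed the filter on low counts. With all pieces, the edgeR quasi-likelihood test called Myo1c and Myo1d lower in NM1 KO, 2 of 7 against 24.5% of the 16887 genes tested. It called 0 of 7 higher, against 25.7% of all genes, and in either direction 50.2% of all genes were called. At an unadjusted p under 0.05, 5 of the 7 passed, and Myo1h, Myo1a and Myo1f were among them as higher, while 56.8% of all genes passed. DESeq2, which gave no adjusted p for Myo1g, called 3 of the other 6 higher and 2 lower, beside 27.5% and 31.9% of 16239 genes. With limma voom and quality weights, 5 of 7 were higher and 2 lower, beside 41.7% and 35.2% of genes. With the added requirement of a 2-fold change, only Myo1d was called in the edgeR fit, as lower, and 20.3% of all genes met that rule as lower and 37.3% in either direction. For 5 of the 7 genes the groups had no overlapping values, against 57% of all genes.

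Without KO+NM1 piece 01, all 7 were called, beside 71.8% of genes, with 5 higher and 2 lower in NM1 KO. In that fit 35.8% of 16617 genes were called higher and 36% lower, and 78.2% of genes had groups that did not overlap. The median log2 fold change of the 7 genes was 0.36 with the piece and 1.98 without it, and that of all genes was 0 in both fits. Log2 fold changes are NM1 KO minus KO+NM1 throughout.

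**Figure D1:**
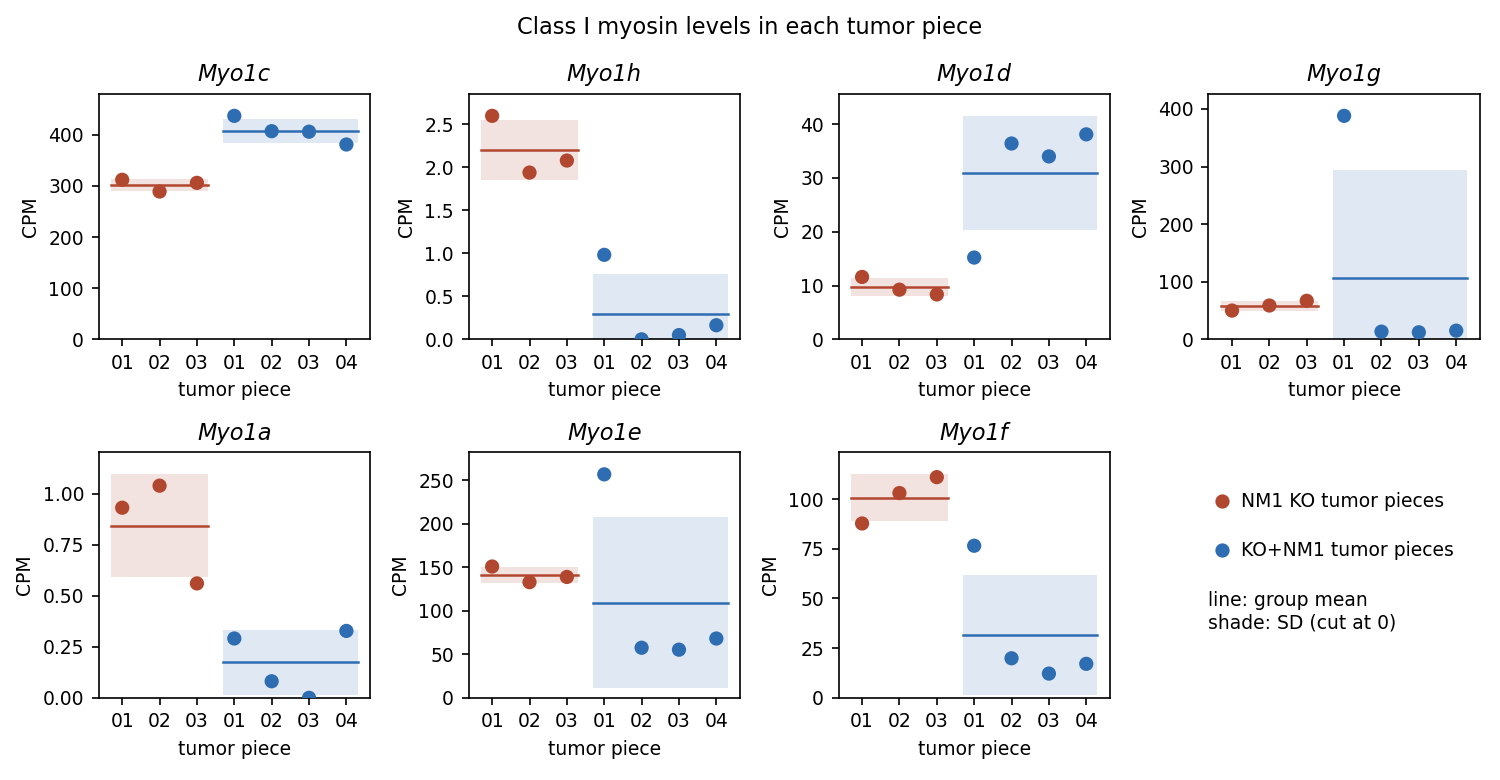
Level of each class I myosin in CPM, 1 point per tumor piece for the 3 NM1 KO and 4 KO+NM1 pieces. KO+NM1 piece 01 lies far above the other KO+NM1 pieces for Myo1g (388 CPM against 12.2 to 15.1) and Myo1e (257 CPM against 55.4 to 68.2).

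Myo1c, the short-tailed motor whose gene encodes NM1 (ENSMUSG00000017774, chr11:75650504-75673910, plus strand), was the most abundant of the set and varied least between pieces. It had 312, 289 and 306 CPM in NM1 KO and 437, 407, 406 and 381 CPM in KO+NM1. Every KO+NM1 piece lay above every NM1 KO piece, and KO+NM1 piece 01 was 1.1 times the mean of the other 3. The coefficient of variation was 4.01% in NM1 KO and 5.65% in KO+NM1.

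The Myo1c level was 1.35-fold higher in KO+NM1, a log2 fold change of -0.43 ± 0.13 (SE, edgeR adjusted p = 0.0311). Without KO+NM1 piece 01 it was -0.52 ± 0.1 (edgeR adjusted p = 0.00251). The call was lost when NM1 KO piece 01, 02 or 03 or KO+NM1 piece 02 was left out, with log2 fold changes of -0.57, -0.52, -0.56 and -0.45 and edgeR adjusted p of 0.0508, 0.072, 0.0647 and 0.0619. It was also lost with scaling by library size only (-0.25, edgeR adjusted p = 0.295) and with the replicate number as a block (-0.46, edgeR adjusted p = 0.126). In such bulk samples, fewer cells of a type and less RNA per cell cannot be told apart. The NM1 KO pieces held 8316 to 9376 Myo1c reads each, and these counts do not check the deletion, since the other forms and host cells are counted with it.

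Myo1h, another short-tailed gene of the set (ENSMUSG00000066952, chr5:114289166-114365357, plus strand), was near the floor of detection in KO+NM1. It had 78, 56 and 63 counts in NM1 KO and 27, 0, 1 and 4 in KO+NM1, or 2.6, 1.94 and 2.08 CPM against 0.983, 0, 0.0493 and 0.164 CPM. The groups did not overlap, with KO+NM1 piece 01 the highest of its group. The count of 0 in KO+NM1 piece 02 allows up to 0.122 CPM. The log2 fold change was 2.82 ± 1.09 (SE, edgeR adjusted p = 0.0672), and 4.73 ± 0.67 without KO+NM1 piece 01 (edgeR adjusted p = 0.000634).

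Of the Myo1h exon bases, 1530 (25.8%) are shared with Kctd10 on the opposite strand. The counts of both genes could therefore depend on the use of strand in counting, which the sources used here do not give. Kctd10 had 87.9, 78.9 and 88 CPM in NM1 KO and 69, 55.7, 59.4 and 63.3 CPM in KO+NM1, a log2 fold change of 0.46 ± 0.12 (edgeR adjusted p = 0.0198). Its part in the Myo1h values was not tested. No other member shares exon bases with a counted gene.

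Myo1d, a short-tailed motor known from endosomes and from left-right patterning (ENSMUSG00000035441, chr11:80482126-80780025, minus strand), had the larger change of the 2 genes that edgeR called with all pieces. It had 11.6, 9.23 and 8.34 CPM in NM1 KO and 15.2, 36.4, 34 and 38.1 CPM in KO+NM1. The groups did not overlap, and KO+NM1 piece 01 was the lowest of its group at 0.419 of the mean of the other 3. The level was 3.18-fold higher in KO+NM1, a log2 fold change of -1.67 ± 0.35 (SE, edgeR adjusted p = 0.00704). Without that piece the difference was 4.06-fold, at -2.02 ± 0.15 (edgeR adjusted p = 3.65e-05).

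The summed markers of several cell types, white adipocytes and Schwann cells among them, were lowest in NM1 KO, as Myo1d was. The 10 white adipocyte markers summed to 101 to 246 CPM in NM1 KO, 2820 CPM in KO+NM1 piece 01 and 16000 to 22200 CPM in pieces 02 to 04, and all 10 were called lower in NM1 KO. The 8 Schwann cell markers summed to 187 to 194 CPM, 447 CPM and 389 to 620 CPM, with 5 of 8 called lower. Not all Schwann cell markers had this order. Mag had 5.52 to 7.29 CPM in NM1 KO and 0.789 to 5.46 CPM in KO+NM1, and Cnp in NM1 KO (66.7 to 70.7 CPM) lay above KO+NM1 pieces 02 to 04 (36.9 to 50 CPM). With that piece left out, 2 of 8 were called higher and 5 lower. Adipoq, which encodes the adipocyte hormone adiponectin, had 0.399 to 9.16 CPM in NM1 KO and 234 to 2070 CPM in KO+NM1. The endothelial list had this order too, at 223 to 255, 1180 and 1280 to 1620 CPM, with 8 of 8 genes called lower. The brown adipocyte list summed to 11.5 to 43.3, 442 and 475 to 3860 CPM, with 6 of 8 lower. The mammary and keratinized epithelium list summed to 24 to 599, 634 and 2180 to 3850 CPM, with 5 of 9 tested genes lower. The part of any of these cell types in the Myo1d values was not tested.

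Myo1g, a plasma membrane motor of lymphocytes (ENSMUSG00000020437, chr11:6506548-6520965, minus strand), changed direction with KO+NM1 piece 01. It had 49.9, 58.7 and 66.9 CPM in NM1 KO and 388, 13.4, 12.2 and 15.1 CPM in KO+NM1. The first KO+NM1 piece was 28.6 times the mean of the other 3 and 6.63 times the NM1 KO mean, and the other 3 lay below every NM1 KO piece. The log2 fold change was -0.87 ± 1.33 with all pieces (SE, edgeR adjusted p = 0.613). Without KO+NM1 piece 01 it was 1.98 ± 0.15, 3.96-fold higher in NM1 KO (edgeR adjusted p = 3.3e-05).

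Myo1f, a long-tailed motor of neutrophils and macrophages (ENSMUSG00000024300, chr17:33555707-33607764, plus strand), had 87.7, 103 and 111 CPM in NM1 KO and 76.5, 19.9, 12.2 and 17.1 CPM in KO+NM1. Every NM1 KO piece was above every KO+NM1 piece, and KO+NM1 piece 01 was 4.66 times the mean of the other 3 and 0.761 of the NM1 KO mean. The log2 fold change was 1.68 ± 0.63 (SE, edgeR adjusted p = 0.0605), and 2.49 ± 0.19 without that piece, a 5.61-fold difference (edgeR adjusted p = 3.77e-05).

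Myo1e, a long-tailed motor of clathrin-dependent endocytosis that is required in kidney podocytes (ENSMUSG00000032220, chr9:70207350-70399766, plus strand), had 151, 133 and 139 CPM in NM1 KO and 257, 57.6, 55.4 and 68.2 CPM in KO+NM1. As for Myo1g, KO+NM1 piece 01 lay above all NM1 KO pieces and the other 3 lay below them. The log2 fold change was 0.36 ± 0.58 (SE, edgeR adjusted p = 0.628), and 1.1 ± 0.11 without KO+NM1 piece 01, 2.14-fold higher in NM1 KO (edgeR adjusted p = 0.000108).

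Myo1a, the brush border motor (ENSMUSG00000025401, chr10:127705170-127720940, plus strand), was at the edge of detection. It had 28, 30 and 17 counts in NM1 KO and 8, 2, 0 and 8 in KO+NM1, or 0.932, 1.04 and 0.561 CPM against 0.291, 0.0812, 0 and 0.328 CPM. The groups did not overlap, and the count of 0 in KO+NM1 piece 03 allows up to 0.148 CPM. The log2 fold change was 2.20 ± 0.80 (SE, edgeR adjusted p = 0.0552), and 2.41 ± 0.78 without KO+NM1 piece 01 (edgeR adjusted p = 0.0268). Of 8 brush border genes listed, 7 were matched and 3 were tested, of which edgeR called 1 lower in NM1 KO. Without KO+NM1 piece 01, edgeR called 1 higher and 1 lower. The brush border list summed to 11.7 to 12.5 CPM in NM1 KO, 27.6 CPM in KO+NM1 piece 01 and 32.8 to 43.4 CPM in pieces 02 to 04. Most of the difference was in Lgals4. Lgals4, a galectin of gut epithelium, had 2.36 to 3.86 CPM in NM1 KO and 18.8 to 36.8 CPM in KO+NM1. Espn, an actin-bundling protein of microvilli, had 6.73 to 8.25 CPM in NM1 KO and 4.49 to 6.24 CPM in KO+NM1 (edgeR adjusted p = 0.125). Cdh17 had 0.347 to 0.566 CPM in NM1 KO, 2.95 CPM in KO+NM1 piece 01 and 0 to 0.0493 CPM in pieces 02 to 04. Slc15a1 had 0 to 1.87 CPM in NM1 KO and at most 0.0493 CPM in KO+NM1. Vil1, the microvillus protein villin, was at most 0.198 CPM in NM1 KO and 1.28 CPM in KO+NM1, and Cdx2, the intestinal transcription factor, was at 0 in every piece.

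**Figure D2:**
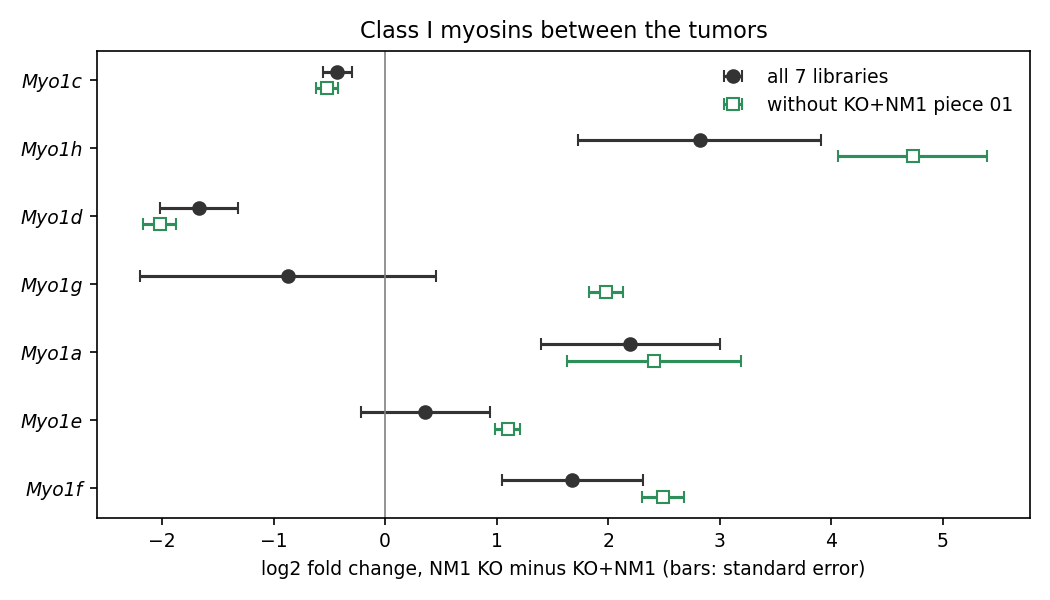
Log2 fold change (NM1 KO minus KO+NM1) of each class I myosin with its standard error, from edgeR with all 7 pieces and without KO+NM1 piece 01. Myo1g moved from -0.87 to 1.98, while Myo1c and Myo1d stayed below 0.

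Myo1f, Myo1g, Myo1e and the blood cell marker lists were all lowest in KO+NM1 pieces 02 to 04, but differed in piece 01. That piece lay above every NM1 KO piece for Myo1g, Myo1e and the leukocyte and B cell lists. It lay below every NM1 KO piece for Myo1f and the macrophage and myeloid list. The 10 leukocyte markers summed to 1470 to 1710 CPM in NM1 KO, 5900 CPM in KO+NM1 piece 01 and 243 to 312 CPM in pieces 02 to 04. The T cell list summed to 251 to 296, 291 and 11 to 14.3 CPM, and the macrophage and myeloid list to 3180 to 3670, 2490 and 627 to 865 CPM. With all pieces the leukocyte, B cell and T cell lists each had 0 of 10 genes called in either direction by edgeR, with median log2 fold changes of -0.08, -5.47 and 2.27, while 8 of 10 macrophage and myeloid genes were called higher in NM1 KO with a median of 1.37. At an unadjusted edgeR p under 0.05, 0 leukocyte, 1 B cell and 1 T cell gene passed. DESeq2 called 2 T cell genes higher and no leukocyte or B cell gene, and voom called 10 leukocyte, 5 B cell and 9 T cell genes higher. Without KO+NM1 piece 01, 10 leukocyte, 3 B cell, 9 T cell and 9 macrophage and myeloid genes were called higher, and 1 macrophage and myeloid gene was called lower. Cd163, a scavenger receptor of macrophages, had 7.55 to 14.1 CPM in NM1 KO, 6.77 CPM in KO+NM1 piece 01 and 26 to 43.4 CPM in pieces 02 to 04.

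Single genes of the leukocyte and the macrophage and myeloid lists differed in KO+NM1 piece 01. Ptprc, which encodes the leukocyte surface phosphatase CD45, had 187, 185 and 218 CPM in NM1 KO and 586, 19.5, 18 and 22.4 CPM in KO+NM1. Adgre1, the macrophage antigen F4/80, had 179, 203 and 226 CPM in NM1 KO and 18.2, 33.7, 23.4 and 35.1 CPM in KO+NM1, so that piece 01 was not raised for this gene. In the same list Mrc1 and Cd163 were also lower in piece 01 than in pieces 02 to 04, and all other genes were higher there. Csf1r had 209 CPM in piece 01, 116 to 166 CPM in pieces 02 to 04 and 359 to 375 CPM in NM1 KO. Lyz2 had 1890, 196 to 271 and 885 to 1020 CPM in the same order. Set against the NM1 KO mean, piece 01 was 6.63 times as high for Myo1g, 1.82 for Myo1e, 1.56 for Myo1d and 1.45 for Myo1c, and 0.761 for Myo1f.

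**Figure D3:**
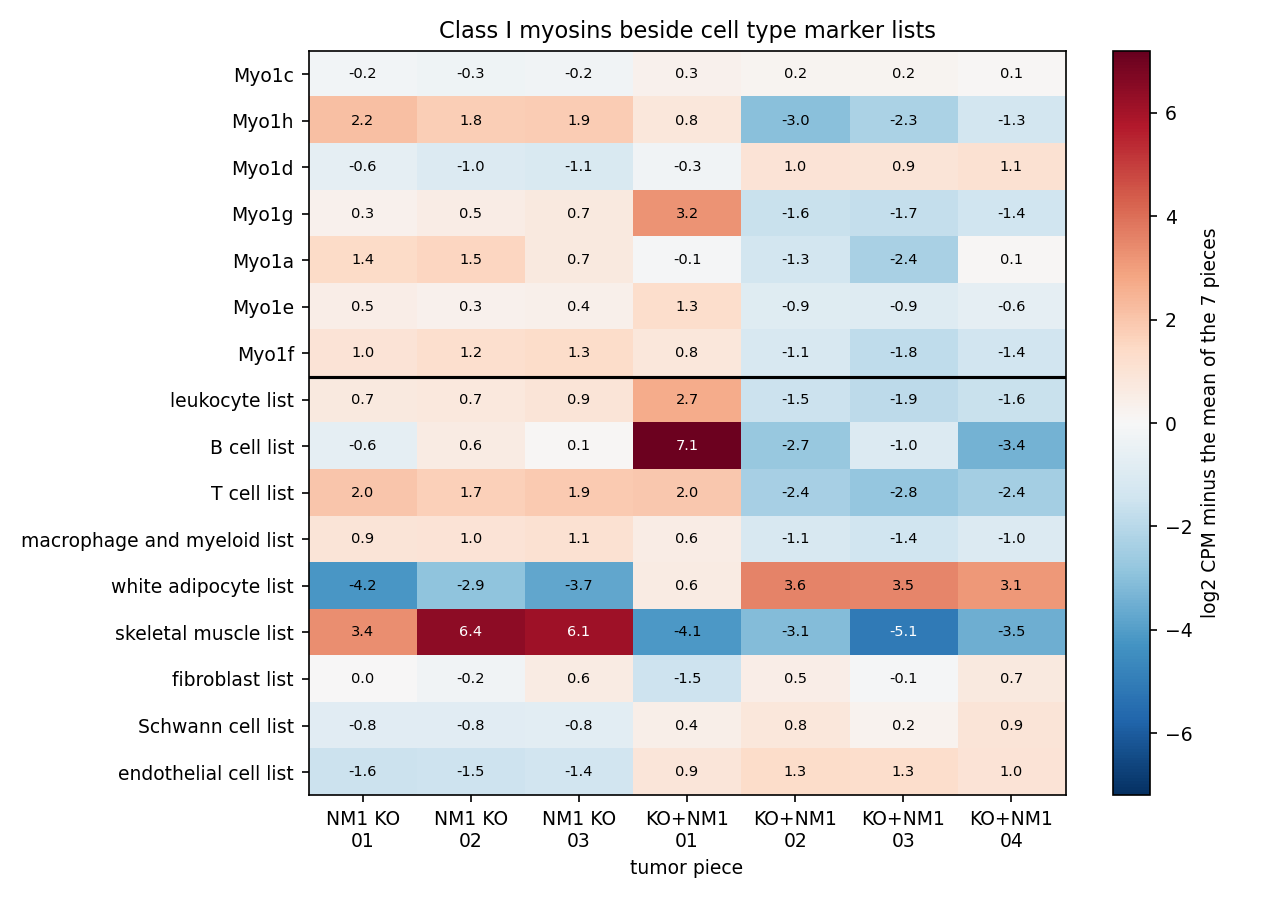
Log2 CPM of each class I myosin and of the summed cell type marker lists in the 7 tumor pieces, each minus its own mean over the pieces, with red above and blue below that mean. The B cell list peaked in KO+NM1 piece 01 (7.1), where Myo1g was also at its highest (3.2), and the white adipocyte list was low in NM1 KO and highest in KO+NM1 pieces 02 to 04.

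Counts of Myo1f and Myo1g were also set against the summed counts of the 10 leukocyte markers in the same piece, which removes library scaling. Per 100 leukocyte marker counts, Myo1f had 5.97, 6.78 and 6.48 counts in NM1 KO and 1.3, 6.38, 5.04 and 5.7 in KO+NM1. The ratio was 6.41 ± 0.405 (SD, n = 3) against 4.6 ± 2.27 (SD, n = 4), a log2 difference of 0.71 (two-sided exact permutation p = 0.286, adjusted over both ratios 0.286) and 0.17 without KO+NM1 piece 01. In CPM, the difference without piece 01 was 5.61-fold, and the part of leukocytes in it was not tested. The ratio also depended on the denominator, and per Ptprc count without that piece the log2 difference was -0.67.

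Per 100 leukocyte marker counts, Myo1g had 3.4, 3.87 and 3.91 counts in NM1 KO and 6.57, 4.28, 5.02 and 5.04 in KO+NM1. Every KO+NM1 piece was above every NM1 KO piece, at 5.23 ± 0.963 (SD, n = 4) against 3.73 ± 0.284 (SD, n = 3). The log2 difference was -0.47 (two-sided exact permutation p = 0.0571, adjusted 0.114) and -0.36 without piece 01. The smallest p that 3 against 4 pieces allows is 0.0286.

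With Ptprc alone as the denominator, Myo1g had 26.6, 31.8 and 30.7 counts per 100 Ptprc counts in NM1 KO and 66.2, 68.7, 67.7 and 67.5 in KO+NM1. Piece 01, whose Myo1g level in CPM was 28.6 times that of the other KO+NM1 pieces, had a ratio to Ptprc slightly below theirs. The means were 29.7 ± 2.72 (SD, n = 3) and 67.5 ± 1.04 (SD, n = 4), a log2 difference of -1.19 (two-sided exact permutation p = 0.0286, adjusted 0.0571), the smallest p possible here. Myo1f per 100 Ptprc counts was 46.8, 55.7 and 50.9 in NM1 KO and 13.1, 102, 67.9 and 76.3 in KO+NM1, where piece 01 was the lowest and the other 3 the highest. The choice of denominator turned its log2 difference to -0.01 (exact permutation p = 1). Leaving out KO+NM1 piece 01, the log2 differences per Ptprc count were -0.67 for Myo1f and -1.2 for Myo1g. Ptprc is 1 of the 10 leukocyte markers, and these were not lower by the same factor in KO+NM1 pieces 02 to 04. Ptprc had 18 to 22.4 CPM there and 185 to 218 CPM in NM1 KO. Cd52 had 4.88 to 10.7 and 81.6 to 104 CPM, and Lcp1 73 to 89.2 and 356 to 399 CPM. Both ratios therefore depend on the marker used, and ratios to other single markers were not tested.

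**Figure D4:**
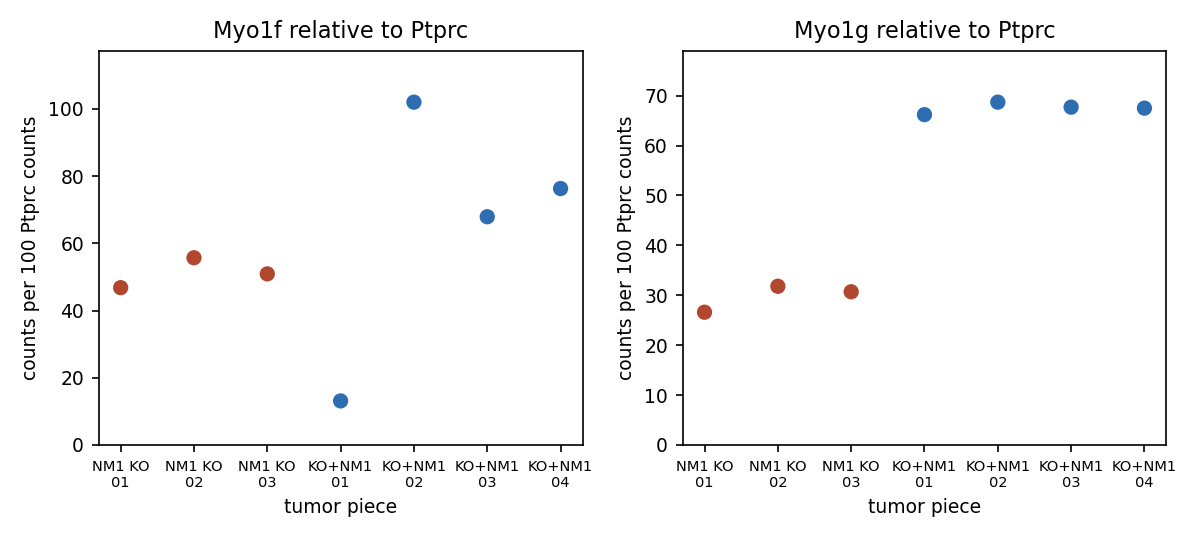
Counts of Myo1g and Myo1f per 100 Ptprc counts in each tumor piece, 3 NM1 KO and 4 KO+NM1. The 4 KO+NM1 pieces lie between 66.2 and 68.7 for Myo1g, all above the NM1 KO pieces (26.6 to 31.8), while Myo1f in KO+NM1 runs from 13.1 to 102. Ptprc is 1 of 10 leukocyte markers, and against all 10 the log2 difference of Myo1g was -0.47.

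The 2 genes known from blood cells also differed in their ratio to each other. Myo1g had 56.9, 57 and 60.4 counts per 100 Myo1f counts in NM1 KO and 507, 67.1, 99.6 and 88.5 in KO+NM1. Myo1e had 172, 130 and 125 counts per 100 Myo1f counts in NM1 KO and 336, 290, 453 and 399 in KO+NM1. In both ratios every KO+NM1 piece was above every NM1 KO piece, and for Myo1e this held in pieces 02 to 04 with piece 01 inside their range.

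The promoters of Myo1f and Myo1g were searched for AGGAAGT, an Ets-type core, on both strands in RefSeq windows of GRCm38.p6 from 250 bases before to 50 bases after each start. The motif was chosen after the promoters had been seen. It was present in 3072 of 32851 windows (9.35%), and among the 9 windows of the 6 genes with an entry, which leaves out Myo1d, only in those of Myo1f and Myo1g. The matches, in capitals and written on the strand of the gene, lie at the start site, at base 5 after the Myo1f start and, on the opposite strand, at base 1 after the Myo1g start.
Myo1f, chr17:33555701-33555727, plus strand: cctcccgcaaAGGAAGTaaaagagggg
Myo1g, chr11:6520942-6520968, minus strand: ggcagaacccACTTCCTactttactga
A match describes these letters only and shows no bound factor.

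To compare levels between genes, CPM was divided by the merged exon length in kilobases. In NM1 KO the order of mean level per length was Myo1c 45.9, Myo1e 24.7, Myo1f 20.2, Myo1g 8.41, Myo1d 1.5, Myo1h 0.372 and Myo1a 0.227 CPM per kilobase, and no neighbours in this order overlapped between pieces. In KO+NM1 it was Myo1c 61.9, Myo1e 19.2, Myo1g 15.4, Myo1f 6.32, Myo1d 4.78, Myo1h 0.0505 and Myo1a 0.0472. There only Myo1c and Myo1e, and Myo1d and Myo1h, were neighbours whose pieces did not overlap. When KO+NM1 piece 01 was left out, the Myo1g mean was 1.95 in place of 15.4, and the order became Myo1c 60.4, Myo1e 10.6, Myo1d 5.6, Myo1f 3.3, Myo1g 1.95, Myo1a 0.0368 and Myo1h 0.012, in which only Myo1a and Myo1h overlapped.

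Summed over the 7 genes, the level per length was 101, 98.4 and 104 CPM per kilobase in NM1 KO and 185, 83.5, 80.8 and 81.4 in KO+NM1. Myo1c made up 46.9%, 44.5% and 44.4% of this sum in NM1 KO and 35.9%, 74%, 76.2% and 71.1% in KO+NM1. In KO+NM1 pieces 02 to 04, Myo1c was therefore the greater part of the summed level of these genes. In piece 01 its own level was the highest of any piece, while its share was the lowest. The long-tailed Myo1f held 19.9% ± 2.17 of the sum in NM1 KO (SD, n = 3) and 5.09% ± 2.27 in KO+NM1 (SD, n = 4). For Myo1d the shares were 1.49% ± 0.272 (SD, n = 3) and 5.44% ± 2.8 (SD, n = 4). In KO+NM1 pieces 02 to 04 alone the shares were 73.8% ± 2.6 for Myo1c, 4.02% ± 0.891 for Myo1f and 6.83% ± 0.376 for Myo1d (SD, n = 3).

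**Figure D5:**
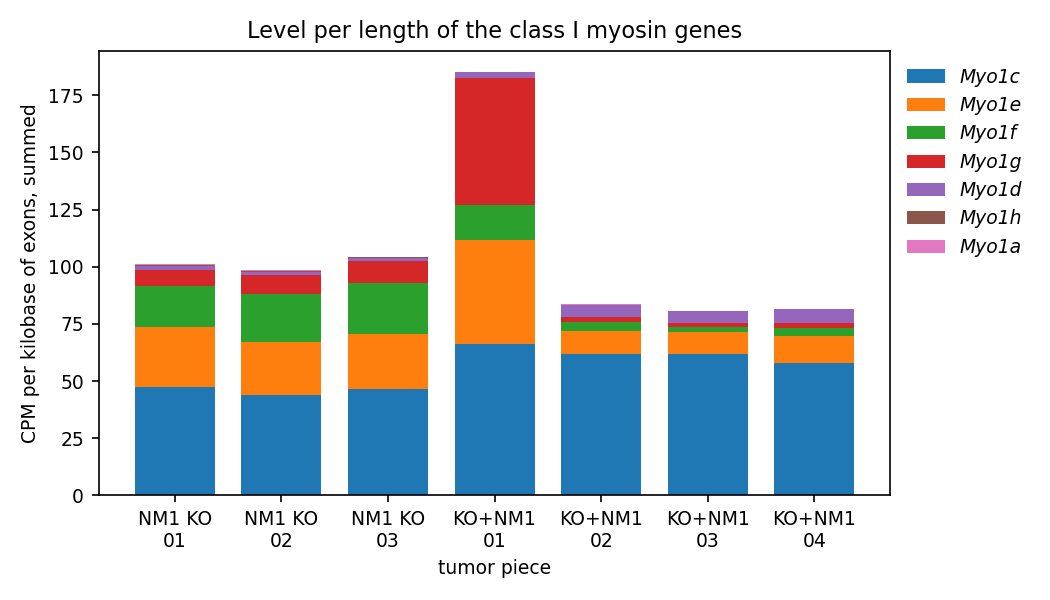
Level of each class I myosin per kilobase of merged exon, in CPM per kilobase, for each tumor piece. Myo1c was highest in every piece, and Myo1h and Myo1a were lowest in every piece.

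The proteins that work with class I myosins were read from a list of 20 light chains and binding partners, all tested. With all pieces, edgeR called 9 higher and 1 lower in NM1 KO and left 10 uncalled, with a median log2 fold change of 0.42. Without KO+NM1 piece 01 it called 12 higher and 2 lower. The smallest adjusted p were those of Tiam1, a Rac exchange factor (1.93 ± 0.23, SE, edgeR adjusted p = 0.000999), Exoc7, a subunit of the exocyst that tethers vesicles (0.84 ± 0.12, edgeR adjusted p = 0.00146), and Synj1, a phosphoinositide phosphatase of endocytosis (0.76 ± 0.13, edgeR adjusted p = 0.0029).

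The 1 partner called lower, named after its values were seen, was Slc2a4, the insulin-responsive glucose transporter GLUT4 whose vesicles Myo1c helps to deliver in adipocytes. It had 7.49, 29.2 and 27.7 CPM in NM1 KO and 59.1, 290, 420 and 215 CPM in KO+NM1, a log2 fold change of -3.52 ± 0.79 (SE, edgeR adjusted p = 0.00931). All 10 white adipocyte markers were lower in NM1 KO too, and their part in the Slc2a4 values was not tested.

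Of 16 other unconventional myosins listed, 12 were tested, with 6 called higher and 2 lower in NM1 KO by edgeR and a median log2 fold change of 1.04. Without KO+NM1 piece 01, 9 were higher and 3 lower. Myo18b, a myosin of striated muscle, had 12.2, 207 and 173 CPM in NM1 KO and at most 2 counts in any KO+NM1 piece (edgeR adjusted p = 0.000829). The skeletal muscle list, at 2280 to 19100 CPM in NM1 KO and 6.61 to 25.4 CPM in KO+NM1, had all 9 tested genes called higher, and its part in the Myo18b values was not tested. Myo10, the motor of filopodia, rose by 2.64 ± 0.33 on the log2 scale (SE, edgeR adjusted p = 0.0011), and Myo5a, a vesicle transporter, by 1.40 ± 0.19 (edgeR adjusted p = 0.0014). The 2 lower genes, named after their values were seen, were the vesicle motors Myo5b (-3.32, edgeR adjusted p = 0.0127) and Myo5c (-2.82, edgeR adjusted p = 0.0402).

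Of 7 non-muscle myosin II genes, edgeR called 2 higher and 1 lower, with a median log2 fold change of -0.09, and without KO+NM1 piece 01 it called 3 higher and 4 lower. The heavy chain Myh10 rose by 3.74 ± 0.34 on the log2 scale (SE, edgeR adjusted p = 0.000476) and the light chain Myl12a by 0.58 ± 0.14 (edgeR adjusted p = 0.0137). Myl9, a light chain of smooth muscle and stromal cells, fell by 3.64 on the log2 scale with an SE of 0.37 (edgeR adjusted p = 0.00061). Each gene named here from the partner and myosin lists kept its direction and its call without KO+NM1 piece 01, with Slc2a4 at -3.97, Myo10 at 2.33, Myh10 at 3.39 and Myl9 at -3.95.

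Likeness to each member was measured over the 7 pieces as the root mean square difference of log2 CPM after each gene was centred on its own mean, among 11692 protein-coding genes with a mean of at least 5 CPM. The nearest genes were Pik3c3 (0.02) and Zbtb14 (0.04) for Myo1c, whose own profile spans only 0.6 on this scale, so that any gene of little change lies near it. They were Abhd14b (0.11) and Garnl3 (0.13) for Myo1d, and Psd4 (0.1) and Syk (0.13) for Myo1g. For Myo1e they were Pip4k2a (0.07) and Mast3 (0.07), and for Myo1f Tap1 (0.13) and Camk1d (0.14). Phf19 (0.3) and Mthfd1l (0.4) were nearest to Myo1h, whose profile spans 5.15. Acpp (0.38) and Nphp4 (0.38) were nearest to Myo1a, whose profile spans 3.89. Genes with counts as low as those of Myo1h and Myo1a were not among the candidates.

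Within the set, the closest profiles were those of Myo1e and Myo1f (0.71), Myo1a and Myo1f (0.73), and Myo1c and Myo1d (0.74). The farthest apart were Myo1h and Myo1d (2.85). No pair of members was as near to each other as each member was to its nearest other gene. That nearest gene was picked from 11692 candidates and a member pair from only a few, so this outcome was nearly certain beforehand. It says nothing about how alike the members are as a family. The points of each profile share the same 7 libraries, and these distances carry no test.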

How the data were processed

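Bulk RNA was sequenced from 3 NM1 KO and 4 KO+NM1 tumor pieces. The authors trimmed reads with Trimmomatic 0.36, aligned pairs to GRCm38 with HISAT2 2.0.4, used SAMtools 0.1.19 and deposited raw HTSeq counts per Ensembl gene. The annotation release and strand option are not given in the sources used here. Symbols, exon lengths and transcripts came from GENCODE M21 (46091 of 46603 IDs matched), and promoters from RefSeq, which had windows for 6 of the 7 genes. Protein sequences were not used here.

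Counts were fitted across all genes in edgeR 4.0.16 (R 4.3.3) with filterByExpr (minimum count 10), TMM and the quasi-likelihood test, with p-values of the 16887 tested genes adjusted by Benjamini-Hochberg and calls at an adjusted p under 0.05. SE is the log2 fold change divided by the square root of F. Ratios to leukocyte markers were compared by exact permutation over pieces. DESeq2 1.42.0, limma 3.58.1, other scalings and filters, a replicate block and leaving out each piece were alternatives. No pair of libraries within a group agreed within sampling noise. The p-values measure only the spread between pieces. Named genes were the 7 members, up to 3 genes with the smallest adjusted p per pathway list, Ptprc and the first gene of marker lists set beside a member, and the 2 genes nearest each member. Kctd10, for its shared exon bases, and Cdx2, Lgals4, Espn, Cdh17, Slc15a1, Cnp, Mag, Cd52, Lcp1, Cd163, Mrc1, Csf1r and Lyz2 were named after their values were seen. The members and lists were chosen with earlier results of these data known. The block and its pairing check are given with the alternatives.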

Additional observations from a re-analysis of the deposited data

Results flagged for a closer look

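In 4 of the 7 genes, 1 KO+NM1 piece lay far from the other 3 by Dixon's ratio, the gap to the nearest value divided by the range, which passed the 95% critical value for 4 samples. The ratio was 0.992 for Myo1g, 0.937 for Myo1e, 0.881 for Myo1f and 0.833 for Myo1h, and in each it was KO+NM1 piece 01 that was high. Chance gives about 1 in 20 such values, and 9 values were checked, all from the same 4 libraries. The share of all genes that pass this limit was not determined. KO+NM1 piece 01 differed from its group across many genes, with 71.8% of genes called without it against 50.2% with it. The count of 4 can therefore not be read as particular to class I myosins. Myo1d, in which the same piece was low, came to 0.82. The B cell list at 6470 CPM in that piece stands beside these values, and its part in them was not tested.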

How the results depend on the processing

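Up to 16 alternatives were run per gene, and 15 for Myo1h and Myo1a, which a stricter low-count filter removed, and for Myo1g, for which DESeq2 gave no adjusted p. Myo1c kept its direction in all 16 and its call in 10, between -0.59 and -0.25. It was -0.25 with library size only (adjusted p = 0.295) and -0.46 with the replicate block (adjusted p = 0.126), and -0.57 to -0.45 with 1 piece left out. Myo1d kept its direction in all 16 (-2.02 to -1.46) and its call in 15, the exception being the block (-1.47, adjusted p = 0.065). Myo1g reversed with the block (0.92, adjusted p = 0.651), with voom and quality weights (2.12) and without KO+NM1 piece 01 (1.98), and was -1.25 to -0.87 with any other piece left out. Myo1h, Myo1a, Myo1e and Myo1f stayed above 0 throughout and passed in 3 of 15, 4 of 15, 2 of 16 and 3 of 16. Of the 7 genes, 3 were called higher by DESeq2, 5 by voom and 0 to 5 with 1 piece left out, 5 without KO+NM1 piece 01 and 1 without KO+NM1 piece 03. Lower calls numbered 1 with library size only, 0 with the block and 1 to 2 with 1 piece left out. Over all genes voom called 7038 higher (4345 in the edgeR fit), and the block called 2680 lower (4132). Library size only called 3418 of 16887 genes lower. With 1 piece left out, 2910 to 5957 genes were called higher and 3226 to 5980 lower, of 16547 to 17411 tested. Without KO+NM1 piece 03, 3765 of 16623 were called higher. The counts of members called can therefore not be read apart from the calls over all genes. Myo1f per leukocyte marker count went from 0.71 to -0.01 with Ptprc alone and to 0.17 to 0.94 with 1 piece left out, and Myo1g per leukocyte marker count to -0.56 to -0.36. With the longest transcript as length, the Myo1c share in NM1 KO was 47.4%. Library size only moved the median of all genes by 0.17, upper quartile scaling by -0.16, voom by 0.12 and leaving out an NM1 KO piece by up to -0.14. The cause of these changes was not tested. Same-numbered pieces correlated at 0.08, 0.1 and -0.02 in their deviations from the group means, so the numbers were not taken to pair the pieces, and the block uses a number only. Low counts of Myo1a and Myo1h limit what can be said of them.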
